A study of Homo sapiens with 16 samples.

Results

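The 39 genes described here encode the digestive enzymes, membrane proteins and regulators of the lysosome and the machinery of autophagy. They were taken from the count table by gene symbol, and all 39 were found among its 58243 genes. They comprise 20 lysosomal hydrolases and their activators, 6 proteins of the lysosomal membrane and its proton pump, 2 transcription factors of the MiT/TFE family and 11 autophagy factors. Their RNA was measured in U-251 MG, an established line of human glioblastoma, after 48 h in 4 conditions. Cells received simvastatin at 0.06 µM, irinotecan at 0.6 µM, both drugs at those doses (the combination) or the vehicle DMSO, with 4 libraries of poly(A) RNA in each group. Simvastatin inhibits HMG-CoA reductase, the enzyme that commits carbon to cholesterol synthesis, and irinotecan is converted in cells to a poison of topoisomerase I. The study used 1 cell line, 1 dose of each drug and 1 time point, and nothing in the labels tells if a group's 4 libraries were separate cultures. The p-values therefore measure the spread between these libraries, which could be technical.

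Lysosomes are acidic compartments in which hydrolases cut proteins, lipids and glycans, and a proton-pumping ATPase of the vacuolar type (V-ATPase) keeps them acidic. In autophagy a membrane sac forms around cytoplasm under the control of the ULK1 kinase and of WIPI proteins, proteins of the LC3 and GABARAP family are attached to its lipids, receptors such as p62 bring in cargo, and the closed vesicle fuses with the lysosome. TFEB and TFE3 bind short DNA elements near lysosomal genes and raise their transcription, and these factors are controlled largely by phosphorylation and entry into the nucleus, which RNA levels do not report.

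The element that TFEB and TFE3 recognise, known as CLEAR, is built around the letters GTCACGTG or their reverse complement CACGTGAC, which contain the E-box CACGTG. RefSeq promoter windows on GRCh38.p14, from 250 bases before to 50 bases after the annotated start, were held for 29 of the 39 members. Either form of the 8-base core, read on both strands, was present in 7 of these 29 members (24.1%), against 2.93% of 27305 genes with such a window. The E-box itself was present in 8 members (27.6%), against 8.77% of all genes. The core lay in 4 of 14 hydrolase genes with a window (GALNS, GAA, CTSA and CTSD), in 3 of 3 membrane and pump genes (LAMP1, MCOLN1 and ATP6V0D1), in 0 of 2 MiT/TFE genes and in 0 of 10 autophagy factors. The stretches before the start that hold the core are shown because they set the members with the element apart from those without it, and the capitals mark the core, 5′ to 3′ on the strand of the gene. LAMP1 had a further core across its start, which is not printed. The matches are letters in a window and not measured binding sites.
GALNS, distal core, chr16:88857104-88857133, minus strand: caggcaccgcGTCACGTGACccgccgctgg
GALNS, proximal core, chr16:88856964-88856991, minus strand: cgccccgcgaGTCACGTGgccgtccagg
GAA, chr17:80101483-80101577, plus strand: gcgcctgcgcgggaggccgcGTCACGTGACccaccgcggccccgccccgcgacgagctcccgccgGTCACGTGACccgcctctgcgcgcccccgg
CTSA, distal core, chr20:45891281-45891308, plus strand: gaggaagactGTCACGTGgcgccggagt
CTSA, proximal core, chr20:45891300-45891327, plus strand: cgccggagttCACGTGACtcgtacacat
CTSD, chr11:1763957-1763984, minus strand: cggccgcgccCACGTGACcggtccgggt
LAMP1, chr13:113297025-113297238, plus strand: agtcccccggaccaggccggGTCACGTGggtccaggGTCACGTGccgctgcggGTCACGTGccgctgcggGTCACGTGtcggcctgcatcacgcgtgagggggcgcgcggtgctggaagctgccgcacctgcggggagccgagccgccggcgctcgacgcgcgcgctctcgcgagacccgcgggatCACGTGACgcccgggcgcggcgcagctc
MCOLN1, chr19:7522561-7522623, plus strand: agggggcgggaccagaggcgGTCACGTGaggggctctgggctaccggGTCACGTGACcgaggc
ATP6V0D1, chr16:67481201-67481228, minus strand: cccccttatgGTCACGTGaggcgcttgc

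Library totals ran from 24159673 to 32318888 counts, and the members together held 0.466% to 0.554% of them. All 39 members passed the filter on low counts, and the lowest count of any member in any library was 62, for CTSK. Levels are given in CPM (counts scaled to a common library size), with TMM factors applied. The markers of astrocytic glioma cells were present, with a summed level of 7404 to 7540.0 CPM with simvastatin, 5734 to 5884 CPM with irinotecan, 5687 to 5844 CPM with the combination and 7652 to 7957 CPM with DMSO, and the part of this difference in the results below was not tested. Of these 9 markers, 7 fell against DMSO with irinotecan and 7 with the combination (77.8% each), by the test described below. It called 11.7% and 13.0% of all genes lower. GFAP had a mean of 203 CPM with DMSO and 94.7 CPM with irinotecan, and S100B and EGFR were not called. With simvastatin 3 markers fell (33.3%), where 2.11% of all genes did. Microglia and macrophages, which are rich in lysosomal enzymes, were checked with 14 markers, whose summed level was 1.38 to 2.19 CPM with simvastatin, 1.60 to 2.71 CPM with irinotecan, 1.38 to 2.61 CPM with the combination and 1.41 to 2.26 CPM with DMSO. Most of this sum came from CSF1R, at 0.69 to 2.12 CPM, and CD14, at 0.16 to 0.95 CPM, which were counted in every library. TYROBP, CD163 and C1QA were at 0 in every library.

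In DMSO libraries the members spanned a wide range of levels. Per kilobase of annotated exon, PSAP, the precursor of the saposins that help hydrolases act on sphingolipids, was highest at 613 ± 28 CPM per kilobase (SD, n = 4). The membrane glycoprotein LAMP2 followed at 88.3 ± 3.0 and the carboxypeptidase cathepsin Z gene CTSZ at 73.5 ± 4.0 CPM per kilobase. At the other end, CTSH, for the aminopeptidase cathepsin H, stood at 1.61 ± 0.06 CPM per kilobase and TFEB at 0.77 ± 0.15. The exon length counts all annotated exons of a gene, so genes with long rarely used exons read low on this scale.

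**Figure D1:**
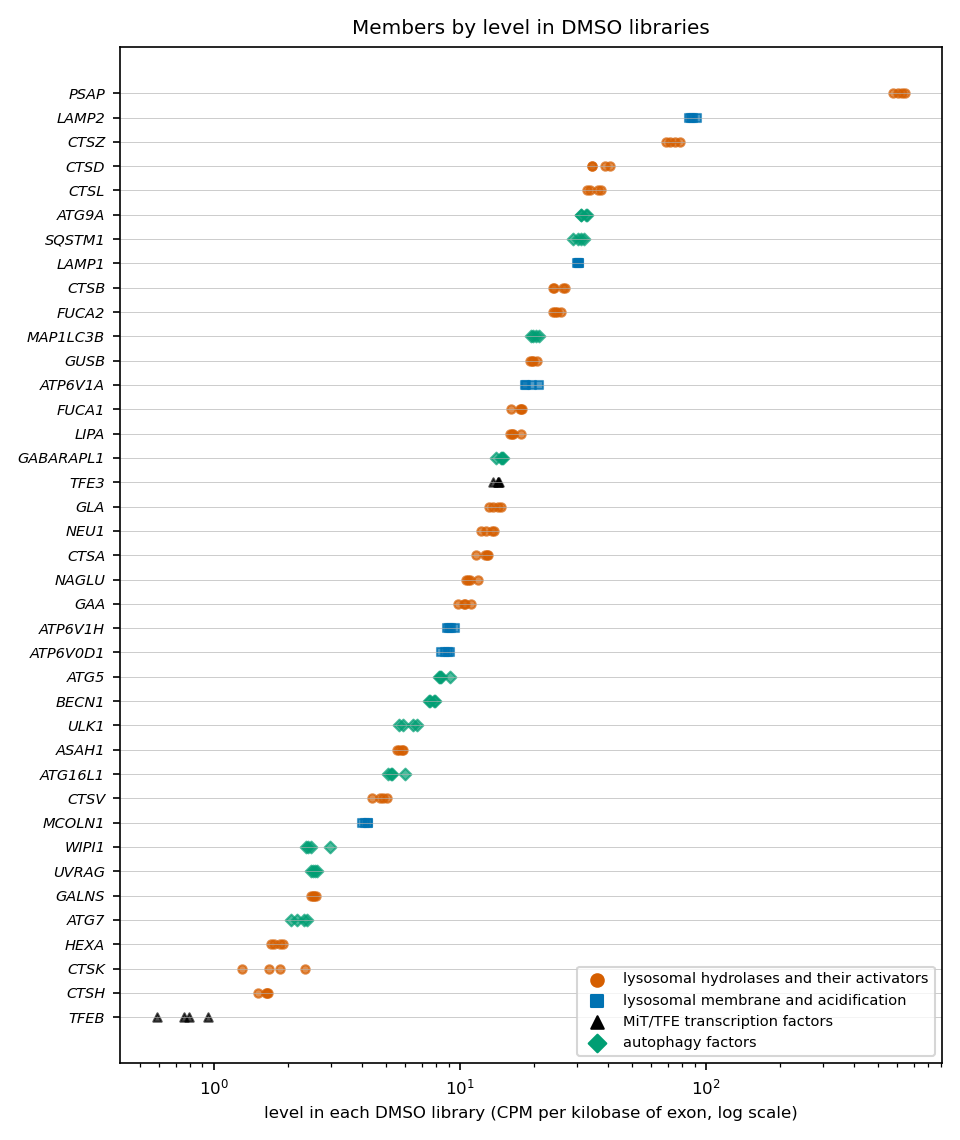
Level of each of the 39 members in the 4 DMSO libraries, in CPM per kilobase of annotated exon on a log scale, 1 point per library, ordered by mean. PSAP stands far above all other members at 613 CPM per kilobase, and TFEB is lowest at 0.77.

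With irinotecan the RNA of many lysosomal hydrolases rose. Against DMSO, 18 of the 39 members rose and 1 fell (edgeR quasi-likelihood test with Benjamini-Hochberg adjustment across the 16647 genes tested, threshold 0.05). Of all genes tested, 24.1% were called, 12.4% higher and 11.7% lower, and among the 11448 genes at least as abundant as the lowest member (mean 3.67 CPM) the shares were 14.3% and 15.8%. The members' median log2 fold change was 0.11, and that of all genes was 0. The libraries did not overlap between the groups in 18 members, 15 higher and 3 lower with irinotecan, and in 23.4% of all genes. Most changes were small, and among the members only CTSV more than doubled its level. These are RNA levels of whole cultures, in which fewer cells of a kind and less RNA per cell cannot be told apart.

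Among the 20 hydrolases and activators, 11 rose and 1 fell with irinotecan. The cathepsins split. CTSV encodes cathepsin V, a cysteine protease closely related to cathepsin L (ENSG00000136943, GRCh38 chromosome 9, 97029679 to 97039643, minus strand). It stood at 52.7, 48.9, 52.4 and 49.0 CPM in the irinotecan libraries, against 23.0, 22.2, 23.8 and 20.7 CPM in the DMSO libraries. Every irinotecan library was above every DMSO library, with a log2 fold change of 1.18 ± 0.06 (SE, adjusted p = 2.83e-16). CTSH (ENSG00000103811, chromosome 15, 78921058 to 78949574, minus strand) stood at 17.0, 16.7, 19.97 and 16.2 CPM with irinotecan, against 9.80, 8.95, 9.67 and 9.62 CPM with DMSO. The groups were again far apart, and CTSH rose by 0.88 ± 0.08 on the log2 scale (adjusted p = 8.5e-10). The other cathepsin genes did not pass the test. The log2 fold change was 0.03 ± 0.05 for CTSL (cathepsin L), 0.00 ± 0.05 for CTSD (the main aspartic protease of lysosomes), 0.09 ± 0.04 for CTSB (cathepsin B, adjusted p = 0.0721), 0.03 ± 0.04 for CTSZ and 0.31 ± 0.16 for CTSK (cathepsin K, at 2.45 to 4.95 CPM in irinotecan and DMSO libraries). CTSL and CTSV share sequence, and how the authors' counting split reads between such relatives is not given in the sources used here.

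A further 9 hydrolases and activators rose with irinotecan. NEU1, the lysosomal sialidase (ENSG00000204386, chromosome 6, 31857659 to 31862906, minus strand), stood at 83.2, 85.0, 83.7 and 81.0 CPM with irinotecan, against 66.6, 59.0, 65.4 and 61.5 CPM with DMSO. Its log2 fold change was 0.40 ± 0.04 (adjusted p = 3.03e-08), with no overlap between the groups. CTSA, for the protective protein that holds sialidase in its complex, was higher in every irinotecan library than in any DMSO library but missed the threshold (0.10 ± 0.04, adjusted p = 0.0987). GALNS, which removes sulfate from keratan and chondroitin sulfate (ENSG00000141012, chromosome 16, 88813734 to 88856970, minus strand), stood at 29.8, 28.3, 29.4 and 29.6 CPM with irinotecan, against 21.5, 21.2, 21.8 and 20.8 CPM with DMSO. The spread within each group was small beside the gap, and the log2 fold change was 0.46 ± 0.06 (adjusted p = 1.99e-07). GLA (alpha-galactosidase A) rose by 0.24 ± 0.05 and GAA (the glycogen-splitting acid alpha-glucosidase) by 0.23 ± 0.05. The fucosidase genes FUCA1 (0.17 ± 0.05) and FUCA2 (0.15 ± 0.04), GUSB for beta-glucuronidase (0.13 ± 0.04), ASAH1 for acid ceramidase (0.17 ± 0.04) and PSAP (0.11 ± 0.03) also passed. The calls of GUSB, PSAP, FUCA1 and FUCA2 were lost when certain single libraries were left out.

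NAGLU was the one hydrolase that fell. It encodes alpha-N-acetylglucosaminidase, an enzyme of heparan sulfate breakdown (ENSG00000108784, chromosome 17, 42536172 to 42544449, plus strand). It stood at 30.0, 29.2, 27.2 and 27.5 CPM with irinotecan, against 35.6, 32.0, 32.4 and 33.1 CPM with DMSO. All irinotecan libraries were lower, with a log2 fold change of -0.22 ± 0.06 (adjusted p = 0.00399). HEXA, a subunit of beta-hexosaminidase (-0.06 ± 0.06), and LIPA, the acid lipase (0.02 ± 0.04), did not pass.

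**Figure D2:**
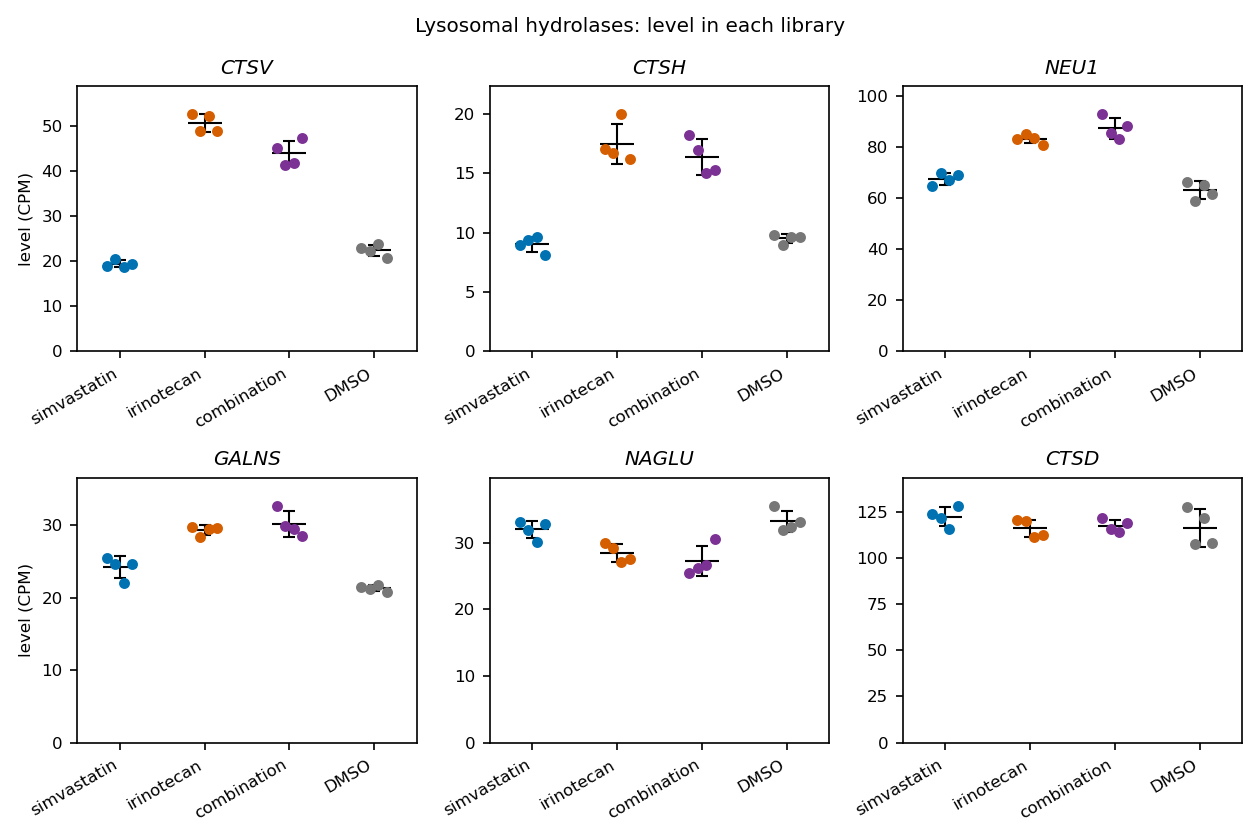
Level in CPM (linear axis from 0) of 6 hydrolase genes in each library, 1 point per library, with the mean and SD of each group of 4 as black bars. CTSV, CTSH, NEU1 and GALNS lie higher in all libraries with irinotecan, alone or combined, than in DMSO libraries, NAGLU lies lower, and CTSD overlaps across groups.

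At the lysosomal membrane 2 of 6 members rose with irinotecan, both of them subunits of the pump. ATP6V0D1, a subunit of the membrane sector of the V-ATPase, stood at 89.4, 91.0, 81.1 and 80.0 CPM with irinotecan, against 74.6, 68.9, 73.3 and 71.8 CPM with DMSO. ATP6V1A, the catalytic subunit, stood at 110.3, 113, 116 and 113 CPM with irinotecan, against 94.1, 95.5, 108 and 101 CPM with DMSO. Neither gene overlapped between groups, and their log2 fold changes were 0.24 ± 0.04 (adjusted p = 8.73e-05) and 0.18 ± 0.04 (adjusted p = 0.00153). The structural glycoprotein genes LAMP1 (-0.08 ± 0.03, adjusted p = 0.0787) and LAMP2 (-0.10 ± 0.04, adjusted p = 0.085) were lower in every irinotecan library than in any DMSO library and did not pass. ATP6V1H, another pump subunit (0.09 ± 0.05), and MCOLN1, the calcium channel of the lysosome (0.04 ± 0.07), did not pass either.

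Of the transcription factors, TFEB rose with irinotecan and TFE3 did not pass. TFEB is weakly expressed and stood at 4.96, 5.35, 6.22 and 5.54 CPM with irinotecan, against 5.33, 4.47, 4.26 and 3.32 CPM with DMSO. The highest DMSO library reached into the irinotecan range. The log2 fold change was 0.35 ± 0.12 (adjusted p = 0.032), and the call was lost with DESeq2 and when any of 4 single libraries was left out. TFE3, the more abundant of the pair, stood at -0.06 ± 0.04 on the same scale (adjusted p = 0.338).

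Of the 11 autophagy factors 4 rose with irinotecan, each by little. MAP1LC3B, the gene of the membrane tag LC3B, rose by 0.17 ± 0.04 (adjusted p = 0.00207). The other 3 were ULK1, the kinase that starts autophagy (0.17 ± 0.06, adjusted p = 0.0302), the LC3 relative GABARAPL1 (0.13 ± 0.04, adjusted p = 0.0263) and SQSTM1, the gene of p62 (0.11 ± 0.04, adjusted p = 0.0466). ULK1 and SQSTM1 overlapped between the groups. This count was 1 without irinotecan replicate 1, 1 without irinotecan replicate 2 and 4 in the full set, so that MAP1LC3B alone kept its call without any single library. ATG5, ATG7, ATG9A, ATG16L1, BECN1, UVRAG and WIPI1, which act in nucleation, lipid supply and conjugation, had log2 fold changes between -0.07 and 0.12 and did not pass.

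Few of these genes changed with simvastatin, and those that rose were autophagy factors. Against DMSO 3 members rose (7.69%) and 1 fell (2.56%), where 6.00% of all genes were called, 3.89% higher and 2.11% lower. Among genes at least as abundant as the lowest member these shares were 5.26% and 2.95%, so the members' counts were near the background. The 3 risers were all among the 11 autophagy factors, and 0 of 20 hydrolases rose. The libraries did not overlap in 5 members, 4 higher and 1 lower, and in 10.0% of all genes. The members' median log2 fold change was 0.00, and that of all genes was -0.01.

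WIPI1, which binds the phosphoinositide of the forming autophagosome (ENSG00000070540, chromosome 17), stood at 12.6, 13.0, 12.0 and 14.7 CPM with simvastatin, against 8.43, 8.24, 8.09 and 10.1 CPM with DMSO. The log2 fold change was 0.58 ± 0.09 (adjusted p = 3.2e-05), with all simvastatin libraries above all DMSO libraries. WIPI1 shares 828 of its 3402 exon bases with ARSG on the opposite strand, and the strand setting of the counting is not given in the sources used here. ARSG was assigned 723 counts over all libraries, where WIPI1 was assigned 4752. MAP1LC3B (ENSG00000140941, chromosome 16) stood at 140.4, 136, 136 and 155 CPM with simvastatin, against 105, 103, 109 and 111 CPM with DMSO. The gap exceeded the spread of either group, with a log2 fold change of 0.41 ± 0.04 (adjusted p = 3.94e-08). SQSTM1 (ENSG00000161011, chromosome 5) stood at 280.3, 269, 259.5 and 289 CPM with simvastatin, against 245, 221, 239 and 232 CPM with DMSO. It rose by 0.23 ± 0.04 on the log2 scale (adjusted p = 0.000247), and its groups did not overlap. All 3 calls held without any single library. SQSTM1 shares 1582 of 7654 exon bases with MRNIP and MAP1LC3B 150 of 5313 with FBXO31, both on the opposite strand, and MAP1LC3B2, a near-identical copy of MAP1LC3B, stood at a mean of 0.898 CPM with simvastatin and 0.496 CPM with DMSO.

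The one member that fell with simvastatin was CTSV, the member with the largest rise under irinotecan. It stood at 19.0, 20.5, 18.7 and 19.4 CPM with simvastatin, against 23.0, 22.2, 23.8 and 20.7 CPM with DMSO. The groups came close but did not overlap, and the log2 fold change was -0.21 ± 0.06 (adjusted p = 0.0322), a call that was lost in 6 of 16 fits with 1 library left out. GALNS was higher in all simvastatin libraries, at 25.4, 24.6, 21.96 and 24.7 CPM, but missed the threshold (0.18 ± 0.06, adjusted p = 0.0591). NEU1 (0.10 ± 0.04, adjusted p = 0.227), TFEB (-0.04 ± 0.12) and TFE3 (0.05 ± 0.04) did not pass.

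**Figure D3:**
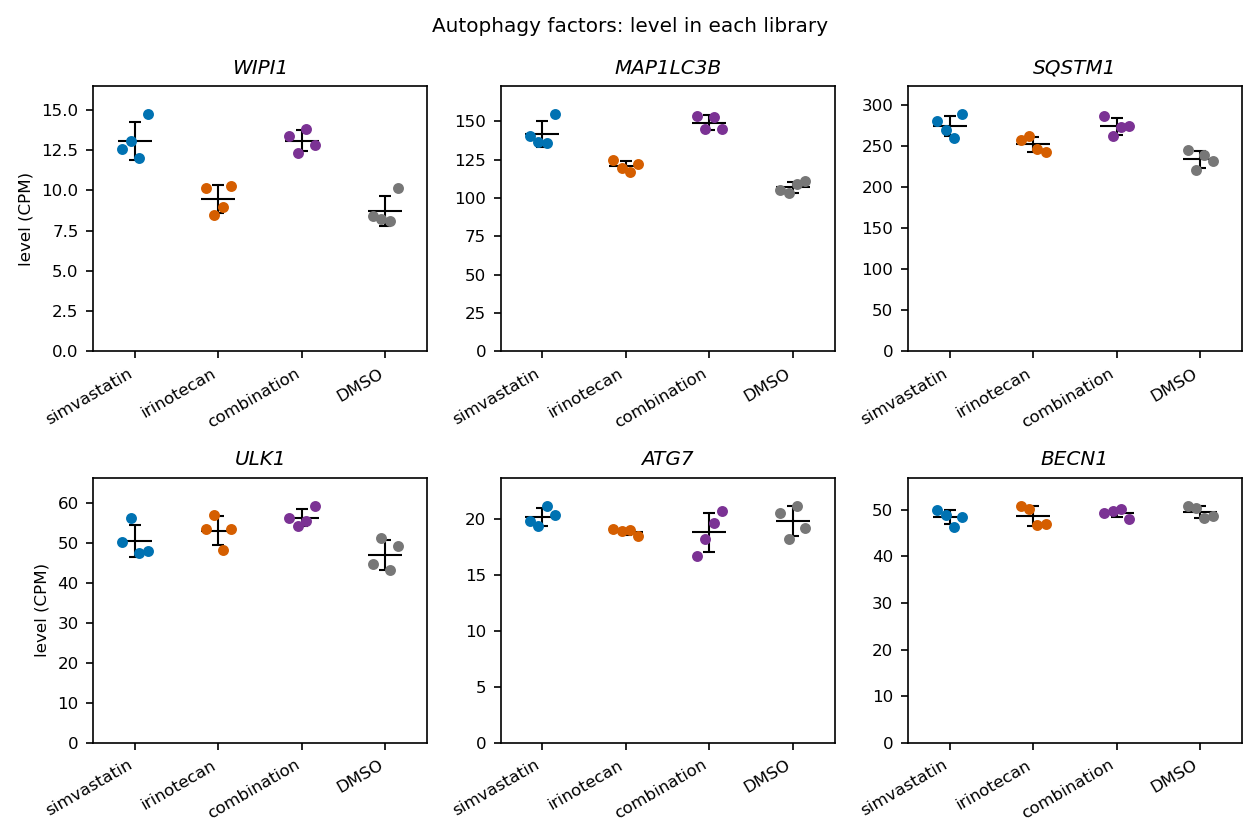
Level in CPM (linear axis from 0) of 6 autophagy genes in each library, 1 point per library, with the mean and SD of each group of 4 as black bars. WIPI1 and MAP1LC3B lie higher in all simvastatin and combination libraries than in irinotecan and DMSO libraries, and ATG7 and BECN1 overlap across groups.

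With both drugs, as with irinotecan alone, some hydrolases and some autophagy factors rose. Against DMSO 17 of 39 members rose and 1 fell, where 28.1% of all genes were called, 15.1% higher and 13.0% lower. Among genes at least as abundant as the lowest member these shares were 18.4% and 16.5%. The libraries did not overlap in 18 members, 16 higher and 2 lower, and in 26.2% of all genes. The members' median log2 fold change was 0.11, and that of all genes was 0. The risers were 10 of 20 hydrolases and activators, 2 of 6 membrane and pump genes, 0 of 2 transcription factors and 5 of 11 autophagy factors. The summed level of the 20 hydrolases and activators was 3430.0 to 3524 CPM with the combination, against 3069 to 3341 CPM with DMSO, and PSAP alone made up 2103 to 2198 CPM with the combination and 1875 to 2083 CPM with DMSO. The 11 autophagy factors summed to 865 to 899.6 CPM with the combination, against 758 to 786 CPM with DMSO. Of this sum, SQSTM1 made up 262 to 287 CPM with the combination and 221 to 245 CPM with DMSO. MAP1LC3B made up 145 to 153 CPM with the combination and 103 to 111 CPM with DMSO.

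CTSV stood at 45.3, 41.3, 41.9 and 47.4 CPM with the combination, 0.97 ± 0.06 above DMSO on the log2 scale (adjusted p = 3.4e-14). CTSH stood at 18.2, 16.9, 15.0 and 15.3 CPM with the combination (0.78 ± 0.08, adjusted p = 9.49e-09). Both were above every DMSO library. NEU1 rose by 0.47 ± 0.04 and GALNS by 0.50 ± 0.06, and NAGLU fell by 0.29 on the log2 scale (SE 0.06, adjusted p = 0.000271). ASAH1 (0.21 ± 0.04), FUCA2 (0.19 ± 0.04), GLA (0.18 ± 0.05), GAA (0.16 ± 0.05), FUCA1 (0.14 ± 0.05) and PSAP (0.11 ± 0.03) completed the hydrolase risers. GUSB (0.05 ± 0.04) and TFEB (0.31 ± 0.12, adjusted p = 0.0565) did not pass. ATP6V0D1 and ATP6V1A rose by 0.25 ± 0.04 and 0.20 ± 0.04.

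Of the autophagy factors WIPI1 stood at 13.4, 12.3, 13.8 and 12.8 CPM with the combination (0.58 ± 0.09, adjusted p = 6.38e-06). MAP1LC3B stood at 153, 145, 153 and 145 CPM (0.48 ± 0.04, adjusted p = 2.61e-10). SQSTM1 stood at 287, 262, 273 and 274 CPM (0.23 ± 0.04, adjusted p = 5.51e-05). None of the 3 overlapped with DMSO. ULK1 stood at 56.1, 54.1, 55.5 and 59.2 CPM with the combination, against 44.6, 51.1, 43.2 and 49.1 CPM with DMSO, and rose by 0.26 ± 0.06 (adjusted p = 0.00116). GABARAPL1 rose by 0.15 ± 0.04 (adjusted p = 0.00861). The remaining 6 factors had log2 fold changes between -0.07 and 0.11 and did not pass.

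**Figure D4:**
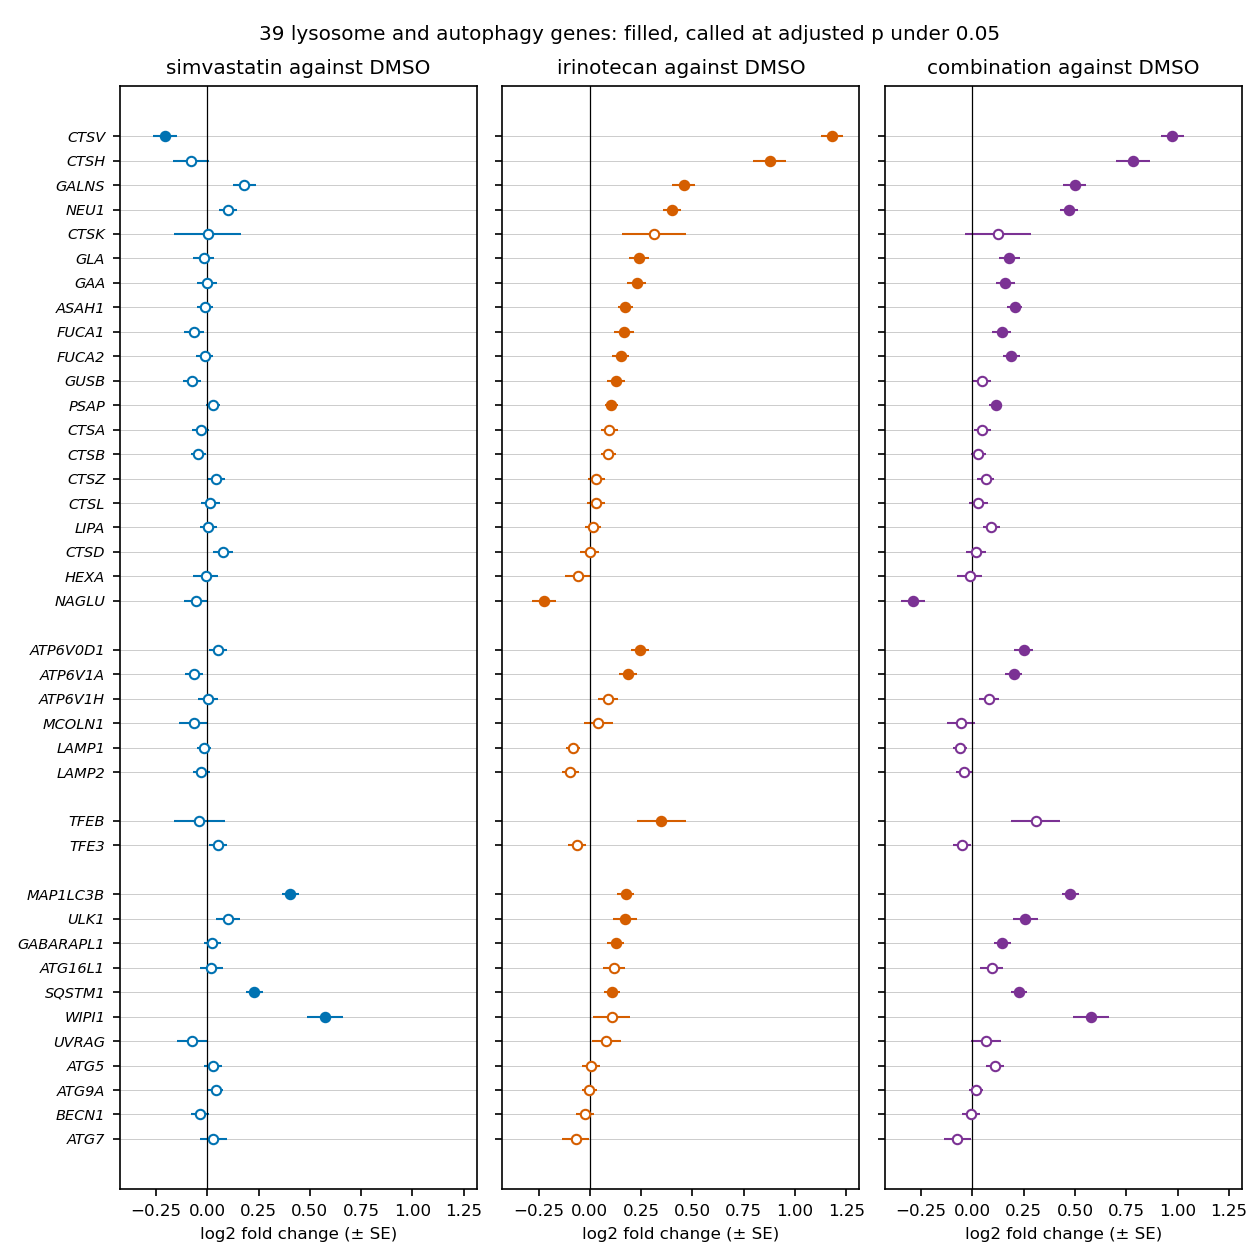
Log2 fold change with standard error of the 39 members against DMSO, for simvastatin, irinotecan and the combination from left to right. Members are grouped as hydrolases, membrane and pump, MiT/TFE factors and autophagy factors, and filled points passed an adjusted p of 0.05. Filled hydrolase points lie mainly in the irinotecan and combination panels, and WIPI1 and MAP1LC3B are the highest points of the simvastatin panel.

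Each drug was measured again in libraries that share none with its comparison to DMSO: irinotecan as the combination against simvastatin, and simvastatin as the combination against irinotecan. For the combination against simvastatin 15 members rose and 1 fell, where 25.6% of all genes were called, 13.9% higher and 11.7% lower. Among genes at least as abundant as the lowest member these shares were 16.9% and 14.9%. The libraries did not overlap in 16 members, all higher, and in 25.8% of all genes. These 15 were 83.3% of the 18 members that rose with irinotecan against DMSO and 100% of their own list, and over all genes the shared higher calls were 73.4% and 65.7% of the 2 lists. CTSV rose by 1.18 ± 0.06, CTSH by 0.86 ± 0.08, NEU1 by 0.37 ± 0.04 and GALNS by 0.32 ± 0.06, and NAGLU fell by 0.23 (SE 0.06, adjusted p = 0.00306). MAP1LC3B (0.07 ± 0.04), SQSTM1 (0.00 ± 0.04) and PSAP (0.09 ± 0.03, adjusted p = 0.0613) were the 3 irinotecan risers that did not pass here. Across the 39 members the log2 fold changes of the 2 measurements of irinotecan had a Pearson's r of 0.97 and a Spearman's rho of 0.881, and across all 16647 genes 0.637 and 0.633. These are descriptions, in which all points share the same libraries. The genes tested also include many less abundant than any member. Neither the correlations nor the shared calls were computed for genes as abundant as the members, so the 2 sets are not alike.

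For the combination against irinotecan 2 members rose and 1 fell, where 5.94% of all genes were called, 4.45% higher and 1.50% lower, so the members' counts were near the background. The libraries did not overlap in 6 members, 4 higher and 2 lower, and in 13.1% of all genes. WIPI1 stood at 13.4, 12.3, 13.8 and 12.8 CPM with the combination, against 10.1, 8.49, 8.96 and 10.3 CPM with irinotecan (0.47 ± 0.09, adjusted p = 0.000471). MAP1LC3B stood at 153, 145, 153 and 145 CPM with the combination, against 125, 119.9, 117 and 122 CPM with irinotecan (0.30 ± 0.04, adjusted p = 6.5e-06). Neither gene overlapped between these groups. SQSTM1, which rose with simvastatin alone, did not pass here (0.12 ± 0.04, adjusted p = 0.0772). CTSV was lower with the combination than with irinotecan in all libraries, with a log2 difference of -0.21 ± 0.05 (adjusted p = 0.0125), and this call was lost in 4 of 16 fits with 1 library left out. Across the 39 members Pearson's r between the 2 measurements of simvastatin was 0.889 and Spearman's rho 0.69, and across all genes 0.265 and 0.321. Here too all genes include many less abundant than any member.

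**Figure D5:**
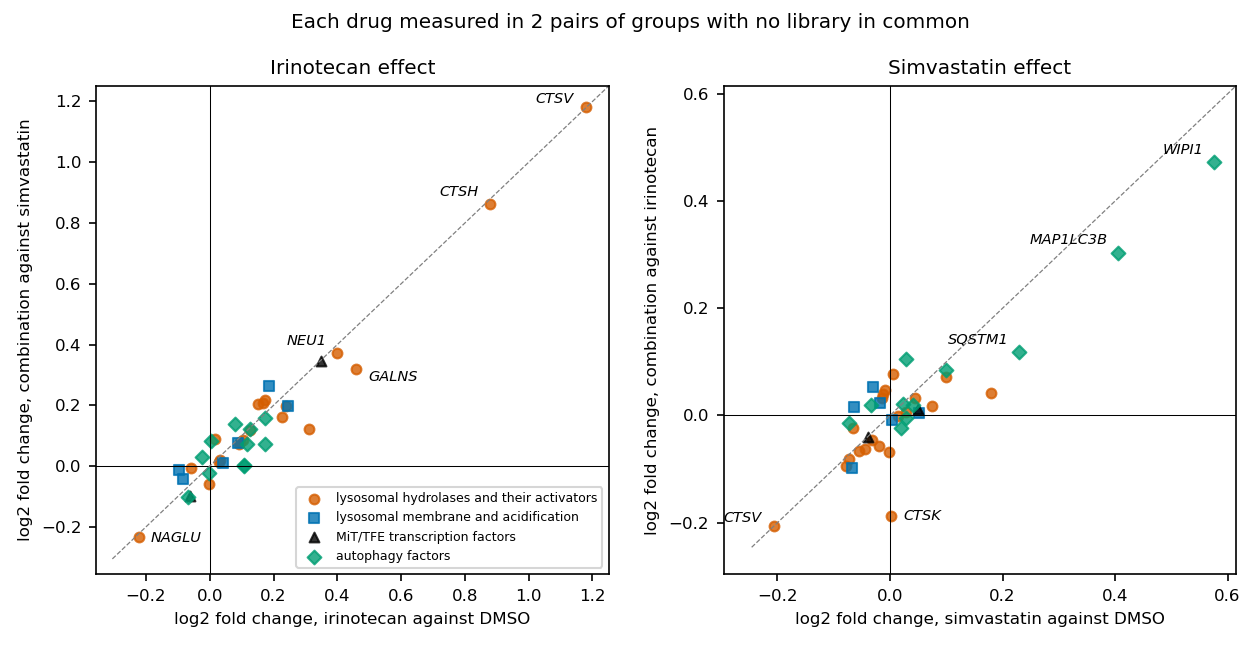
Log2 fold changes of the 39 members for irinotecan (left, combination against simvastatin plotted over irinotecan against DMSO) and simvastatin (right, combination against irinotecan plotted over simvastatin against DMSO). The dashed line marks equal values, and CTSV lies at 1.18 on both axes for irinotecan and at -0.21 on both axes for simvastatin.

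No departure of the combination from additive effects was called in a member. The interaction, the combination minus each drug plus DMSO on the log2 scale, was called in 0 of 39 members by edgeR and in 0.0120% of all genes. No member reached an unadjusted p under 0.05 by edgeR (lowest 0.062, for SQSTM1) or by DESeq2 (lowest 0.0847). The interaction was -0.10 ± 0.06 for MAP1LC3B, -0.10 ± 0.12 for WIPI1 and -0.11 ± 0.06 for SQSTM1. For GALNS it was -0.14 ± 0.08 and for CTSV 0.00 ± 0.06. The largest standard error was that of CTSK (-0.19 ± 0.23). With such standard errors, departures larger than these estimates are not excluded.

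The CLEAR core was found both in members that rose and in members that did not pass. With irinotecan 3 of the 7 members with the core rose (GALNS, GAA and ATP6V0D1). Of the 22 members whose windows lacked the core 12 rose, among them CTSV, CTSH and NEU1. The window of NEU1 held the E-box CACGTG without the full core. Members without the core included all 10 autophagy factors and the MiT/TFE genes with a window, so this split is also one by class. The median log2 fold change was 0.10 with the core and 0.12 without it. LAMP1, whose window holds 6 cores, MCOLN1, CTSA and CTSD carried the element and did not pass. With simvastatin 0 of 7 members with the core and 3 of 22 without it rose. Those 3 were autophagy factors, and 0 of 10 autophagy factors with a window held the core, so this split cannot be told from one by class. Of all genes tested, 12.4% were called higher with irinotecan and 3.89% with simvastatin. Among genes at least as abundant as the lowest member these shares were 14.3% and 5.26%. A further 10 members had no window and were not scored.

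The wider pathway was read with 161 other lysosome and autophagy genes, of which 158 were tested. With irinotecan 36 of them rose and 8 fell, with the combination 45 and 10, and with simvastatin 8 and 0, all against DMSO. The shares that rose were 22.8% with irinotecan, 28.5% with the combination and 5.06% with simvastatin, where 12.4%, 15.1% and 3.89% of all genes and 14.3%, 18.4% and 5.26% of genes at least as abundant as the lowest member were called higher. The simvastatin count was thus near the background. Among 36 other hydrolases and activators 13 rose and 1 fell with irinotecan. CTSF, for cathepsin F, stood at 14.7, 16.4, 15.9 and 15.2 CPM with irinotecan, against 10.9, 8.99, 10.6 and 10.5 CPM with DMSO (0.60 ± 0.08, adjusted p = 4.78e-07). SCPEP1, a serine carboxypeptidase, rose by 0.34 ± 0.04, and ARSB, which removes sulfate from dermatan and chondroitin sulfate, fell by 0.39 (SE 0.06, adjusted p = 8.01e-06). CTSF and ARSB did not overlap between the groups. VPS18, a subunit of the complexes that tether vesicles to lysosomes, rose by 0.34 ± 0.05 with irinotecan and by 0.34 ± 0.05 with the combination.

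Of 13 other autophagy receptors 2 rose and 2 fell with irinotecan (15.4% each), where 12.4% of all genes were called higher and 11.7% lower. With simvastatin 3 rose (23.1%) and 0 fell, where these shares of all genes were 3.89% and 2.11%. With the combination 4 rose (30.8%) and 2 fell (15.4%), where they were 15.1% and 13.0%. BNIP3 and BNIP3L fell with irinotecan and rose with simvastatin. BNIP3, a receptor that marks mitochondria for autophagy, stood at 367, 344, 336 and 387 CPM with irinotecan, against 579.6, 543, 583 and 596 CPM with DMSO. It stood at 775, 778, 763 and 808 CPM with simvastatin, above every DMSO library. Its relative BNIP3L fell by 0.47 with irinotecan (SE 0.04, adjusted p = 7.34e-11) and rose by 0.19 ± 0.04 with simvastatin (adjusted p = 0.00127). RRAGA, a GTPase that brings the growth kinase complex mTORC1 to the lysosome, stood at 143, 139.6, 132 and 130.5 CPM with irinotecan and at 189, 191, 191 and 199.9 CPM with simvastatin, against 175, 162, 171 and 165 CPM with DMSO. It fell by 0.30 with irinotecan (SE 0.04, adjusted p = 3.86e-07) and rose by 0.20 ± 0.04 with simvastatin (adjusted p = 0.000776). The other receptors called with either drug alone were OPTN and CALCOCO2. OPTN rose by 0.30 ± 0.06 with irinotecan, and CALCOCO2 by 0.17 ± 0.04 with irinotecan and by 0.20 ± 0.04 with simvastatin.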

How the data were processed

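Counts per gene (whole numbers, not normalised) were deposited by the authors for 58243 Ensembl genes in 16 libraries of U-251 MG. Per the submitters' processing notes, FastQC, STAR 2.7.1, DESeq2 and GRCh38 were used. How genes were annotated and counted, and whether by strand, is not given in the sources used here, so counts of overlapping genes and close paralogs are uncertain. The members, the lists of other genes and the markers were chosen with earlier results of these data known.

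Counts were tested with edgeR 4.0.16 (limma 3.58.1, R 4.3.3): filterByExpr with minimum count 10 and minimum total 15 (16647 genes left), TMM factors, robust quasi-likelihood fits of all 16 libraries with 1 term per group, two-sided F tests, and Benjamini-Hochberg adjustment over all genes tested, with calls under 0.05. The common biological coefficient of variation was 5.25%. Standard errors come from the fold change and its F statistic. The test was tried on simulated counts. Libraries of a group were checked for duplicates by chi-squared per degree of freedom (2.58 to 14.8, near 1 for a library counted again). All members are named, and from each list of other genes up to 3 per comparison with the smallest p among those called. Exon lengths and coordinates came from GENCODE 29 and promoter windows from RefSeq (GRCh38.p14). Printed promoter stretches end before the start, and were shortened to 10 bases around a core where over 30 bases overlapped an annotated exon. The floor on abundance for the second background share was chosen after the data had been seen. Alternatives were median-ratio size factors, library totals alone, DESeq2 1.42.0, no filter, an adjusted p under 0.01, the compared groups alone, the 12 numbered libraries with and without a replicate block, and each library left out. Plots were made in Python 3.11.15 (matplotlib 3.10.9).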

Additional observations from a re-analysis of the deposited data

Results flagged for a closer look

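In 7 of 156 groups of 4 libraries (39 members in 4 groups), 1 library stood apart from the other 3, its gap to the nearest of them, over the whole range, being above the critical value of Dixon's test. Chance gives about 1 in 20 such groups. CTSL was 89.25 CPM in combination replicate 1, where the nearest library was at 83.54. ATP6V0D1 was 88.87 CPM in the same library (nearest 85.13). GLA was 33.03 CPM in simvastatin replicate 4 (nearest 30.91) and ATG9A 161.7 CPM in simvastatin replicate 2 (nearest 153.7). MCOLN1 was 18.82 CPM in irinotecan replicate 2 (nearest 16.45) and ATG5 50 CPM in irinotecan replicate 4 (nearest 47.98). WIPI1 was 10.14 CPM in DMSO replicate 4 (nearest 8.429), and its calls with simvastatin and with the combination held without that library.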

How the results depend on the processing

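Of 60 calls of single members, 42 held without any single library, 18 were lost without some library and 0 changed direction. With 1 library left out, the members called were 3 to 4 for simvastatin, 13 (without DMSO replicate 4) to 20 for irinotecan and 15 to 20 for the combination, all against DMSO, 2 to 3 for the combination against irinotecan, 11 to 16 for the combination against simvastatin and 0 for the interaction. Hydrolases called higher were 8 to 12 with irinotecan, 7 to 11 with the combination and 8 to 10 for the combination against simvastatin. Autophagy factors called higher were 3 in every such fit with simvastatin, 1 to 4 with irinotecan, 5 to 6 with the combination, 2 in every such fit for the combination against irinotecan and 0 to 2 for the combination against simvastatin. The autophagy count with irinotecan (4) was 1 at an adjusted p under 0.01 and 2 with the compared groups alone. The autophagy count for the combination against simvastatin (2) was 1 with median-ratio size factors, 1 with DESeq2, 1 without the filter, 0 at an adjusted p under 0.01 and 5 with library totals alone. The cause was not tested. Library totals alone moved the median of all genes to 0.075 with irinotecan, 0.058 with the combination and 0.048 for the combination against simvastatin, and the share of all calls that were higher was 77.8%, 73.4% and 73.4%, where TMM gave 51.4%, 53.8% and 54.1%. Members higher and lower were then 23 and 1, 24 and 1, and 23 and 1. For the combination against irinotecan the share was 62.9% and, without the filter, 57.3%, where the report's settings gave 74.8%. By their titles, the 12 numbered libraries of the groups share only a number. Deviations of same-numbered libraries correlated at -0.065 to 0.2, 4 of 18 over 0.1. Those of libraries with other numbers correlated at -0.16 to 0.098, 0 of 36 over 0.1. Of the 12 libraries, 8 were closest to their own number. What the numbers stand for is not given in the sources used here, and the main fit used no replicate block. In these 12 libraries the members called with irinotecan were 19 with the replicate block and 12 with no replicate block, autophagy factors called higher were 4 and 1 with irinotecan, and 2 and 1 for the combination against simvastatin. The members called in the interaction were 0 with and without the block. Over all genes the interaction was called in 2 genes, in 4 with DESeq2, in 14 without the filter, and in the 12 numbered libraries in 190 with the block and 1 without it. The smallest change called in a member was 0.11 on the log2 scale and one of 0.31 in CTSK was not called, so members that did not pass may have moved by such amounts.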

Other observations

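Relatives of MAP1LC3B rose in part. MAP1LC3A rose by 0.28 ± 0.09 on the log2 scale with irinotecan (adjusted p = 0.0162) and by 0.40 ± 0.09 for the combination against simvastatin (adjusted p = 0.00109), and MAP1LC3C rose by 0.37 ± 0.12 with irinotecan (adjusted p = 0.0251, edgeR quasi-likelihood test). Neither was called for the combination against DMSO. MAP1LC3A stood at 7.40 to 8.10 CPM with simvastatin and 8.20 to 9.65 CPM with DMSO. Of the 12 other LC3 and GABARAP conjugation genes tested, 3 rose with irinotecan (25%) and 1 with the combination (8.33%), both against DMSO. Among genes at least as abundant as the lowest member, 14.3% and 18.4% were called higher. Of 17 further V-ATPase subunits 3 rose with irinotecan, 8 with the combination and 1 with simvastatin, all against DMSO, and 0 fell. These are 17.6%, 47.1% and 5.88% of the list, where 14.3%, 18.4% and 5.26% of genes at least as abundant as the lowest member were called higher, so the irinotecan and simvastatin counts were near the background. They included ATP6V1C1, with 0.14 ± 0.05 for irinotecan and 0.19 ± 0.05 for the combination. Genes that act at the start of autophagy rose in part with the combination: of 16, 6 rose (37.5%) and 1 fell (6.25%), where 15.1% of all genes were called higher and 13.0% lower. Among genes at least as abundant as the lowest member these shares were 18.4% and 16.5%. Those with the smallest p included NRBF2 (0.29 ± 0.05) and AMBRA1 (0.22 ± 0.04), both partners of the lipid kinase complex that nucleates the autophagosome. The summed level of the 16 genes overlapped, at 1211 to 1243 CPM with the combination and 1191 to 1260 CPM with DMSO. With irinotecan 4 of the 16 rose (25%) and 1 fell (6.25%), where 12.4% of all genes were called higher and 11.7% lower. With simvastatin 2 rose (12.5%) and 0 fell, where these shares were 3.89% and 2.11%. NPC1, which exports cholesterol from lysosomes, rose by 0.26 ± 0.05 with the combination and by 0.19 ± 0.05 with irinotecan. GGH, which trims folates in the lysosome, rose by 0.26 ± 0.03 with the combination.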
